A study of Mus musculus with 7 samples.

Results

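The genes described here build, hold back or export cholesterol. They are 29 genes chosen by symbol from the 33696 genes in the feature list of a 10x Genomics 3′ single-cell RNA-seq experiment, and all 29 were found there. By role, 7 encode the mevalonate steps (Acat2, Hmgcs1, Mvk, Pmvk, Mvd, Idi1, Fdps) and 10 the squalene and sterol steps (Fdft1, Sqle, Lss, Cyp51, Msmo1, Nsdhl, Hsd17b7, Ebp, Sc5d, Dhcr7), which together are called the 17 synthesis genes below. Another 3 control the pathway (Srebf1, Srebf2, Insig1), 1 carries sterol between membranes (Stard4), 4 belong to the LXR and efflux arm (Nr1h3, Abca1, Abcg1, Mylip) and 4 make fatty acids (Fasn, Acaca, Scd1, Scd2). Their levels were compared between the cells of mouse malignant peripheral nerve sheath tumors (MPNSTs), between macrophage subsets, between cycling and non-cycling tumor cells, and between irradiated and control tumors.

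All 7 tumors were grown from JW23.3, a mouse MPNST cell line with mutated Nf1, by implanting cells under the flank skin of female wildtype C57/B6 mice that were 5 to 6 weeks old at implantation. In 4 tumors (irradiated 1 to 4) radiation therapy (RT) was given as 5 daily fractions of 2 Gy to the tumor. Regions outside the tumor were shielded with lead. The other 3 tumors (control 1 to 3) received no RT, and all 7 were taken at day 21. The model is a single cell line in a single host strain, so tumor genotype was not varied. Each tumor was 1 library, and the tumor was the unit of replication throughout. The 39537 cells deposited held 646559899 unique molecular identifiers (UMIs), of which each library held 53496570 to 153044123, and 34296 cells remained after outlying cells were left out.

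Cells were sorted into classes by counting how many genes of a marker list had at least 1 UMI, with no member gene among the markers. The gates held 14483 MPNST-like cells (42.2% of those retained), 11400 macrophage-like cells (33.2%), 1307 T/NK-like cells (3.81%), 469 endothelial-like cells (1.37%), 195 pericyte-like cells (0.569%) and 197 fibroblast-like cells (0.574%), and 6245 cells (18.2%) fell in none. MPNST-like cells were also required to lack Xist, the transcript of X inactivation that cells of the female hosts make. The summed level of the macrophage markers was 25410 to 31470 counts per 1000000 UMIs (CPM) in macrophage-like cells and 47.69 to 108.2 CPM in MPNST-like cells. The MPNST markers summed to 7013 to 8861 CPM in MPNST-like cells and 46.2 to 182.6 CPM in macrophage-like cells. Fibroblast-like cells also carried the MPNST markers, at 6493 to 7682 CPM in the 4 tumors with at least 20 of them, and were separated from tumor cells by Xist and by having more fibroblast than MPNST markers. The gates also cap the markers of other classes, so the low values given here are in part set by the gate.

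Libraries were also put into 2 technical sets by cell number, depth, genes per cell and mitochondrial share. No label names a batch, and the split is the one of 63 that left the least spread within its sets, a share of 0.489 against 0.544 for the next, so it is a description of these libraries. Set 1 held irradiated 1, control 2 and control 3, and set 2 held irradiated 2, 3, 4 and control 1, so the sets crossed the treatment but unevenly. Cell barcodes seen in more than 1 library numbered 190, with at most 19 between any pair of libraries. A count of UMIs on a gene is compared below only between cells and tumors, never between genes, since a 3′ UMI level is not scaled by length or by capture.

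As background, cells make cholesterol from acetyl-CoA through mevalonate, isoprenoids, squalene and lanosterol. When membranes of the endoplasmic reticulum are low in sterol, SREBP proteins (from Srebf1 and Srebf2) are released from the INSIG proteins, enter the nucleus and switch on the synthesis genes. When oxysterols accumulate, liver X receptors (LXRα is encoded by Nr1h3) switch on the ATP-binding cassette transporters ABCA1 and ABCG1, which pass cholesterol to lipoprotein particles outside the cell, and MYLIP, a ubiquitin ligase that removes the lipoprotein receptor through which cholesterol enters. Macrophages that clear dying cells take up much cholesterol and are known for a strong efflux arm, and dividing cells need sterol for new membrane.

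The promoter sequences of 4 members are shown because they carry the letters searched for in the whole list, 3 on the synthesis and control side and 1 on the efflux side. Each runs 5′ to 3′ on the gene's strand up to the last base before the annotated start, from NCBI RefSeq on GRCm38.p6, and is shortened where another annotated exon lies. Capitals mark the sterol response element (TCACNCCAC), the CCAAT box (CCAAT, or ATTGG on the other strand) and the E-box (CACGTG), each searched on both strands.
Hmgcs1, chr13:119690101-119690350, + strand: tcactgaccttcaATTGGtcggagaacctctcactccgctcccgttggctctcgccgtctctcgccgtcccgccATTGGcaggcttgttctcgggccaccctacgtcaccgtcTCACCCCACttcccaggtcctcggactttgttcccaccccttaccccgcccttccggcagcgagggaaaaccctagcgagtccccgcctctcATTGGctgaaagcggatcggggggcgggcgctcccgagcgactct
Lss, chr10:76531355-76531587, + strand: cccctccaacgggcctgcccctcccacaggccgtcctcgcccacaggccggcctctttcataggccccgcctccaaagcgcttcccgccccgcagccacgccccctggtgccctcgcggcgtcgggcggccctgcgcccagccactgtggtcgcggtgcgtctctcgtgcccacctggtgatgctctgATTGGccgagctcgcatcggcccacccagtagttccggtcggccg
Insig1, chr5:28071162-28071362, + strand: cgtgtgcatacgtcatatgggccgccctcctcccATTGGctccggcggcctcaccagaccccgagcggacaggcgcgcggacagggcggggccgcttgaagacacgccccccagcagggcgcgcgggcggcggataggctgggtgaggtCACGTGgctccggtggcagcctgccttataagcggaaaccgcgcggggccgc
Abca1, chr4:53159896-53160145, - strand: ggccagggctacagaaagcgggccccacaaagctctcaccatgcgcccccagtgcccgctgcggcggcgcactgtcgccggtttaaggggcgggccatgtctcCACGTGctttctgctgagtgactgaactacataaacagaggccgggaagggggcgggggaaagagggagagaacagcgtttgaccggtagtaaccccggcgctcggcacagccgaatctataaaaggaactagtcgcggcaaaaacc

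RefSeq windows from 250 bases before to 50 after the start were at hand for 22 of the 29 members, 28 windows in all. Only the 250 bases before the start were searched, for the members and for all genes. The CCAAT box was in 19 of those 28 windows (67.9%), against 33.8% of all 32851 promoter windows of the same length, and in at least 1 window of 13 of the 14 synthesis genes that had one. Hmgcs1 carried 3 of them, at 237, 176 and 45 bases before the start, beside the sterol response element TCACCCCAC at 137. That element was in 1 of the 28 windows, Hmgcs1's, and in 1.05% of all windows. Its search also took 1 exact form, so a missing match cannot tell whether another form of the element is present. The E-box was in 5 windows (17.9%, against 6.02% of all), those of Hsd17b7, Abca1, Insig1, Dhcr7 and Sc5d. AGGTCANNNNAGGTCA, an exact form of the pair of direct repeats that LXR binds, was in 0 of the 28 windows and in 0.0152% of all. Only these exact letters were searched, and they matched 5 of the 32851 windows. Their absence from the 28 windows therefore cannot tell whether an LXR site is present. These are matches of letters and not measured binding, and windows of 1 gene can overlap.

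**Figure D1:**
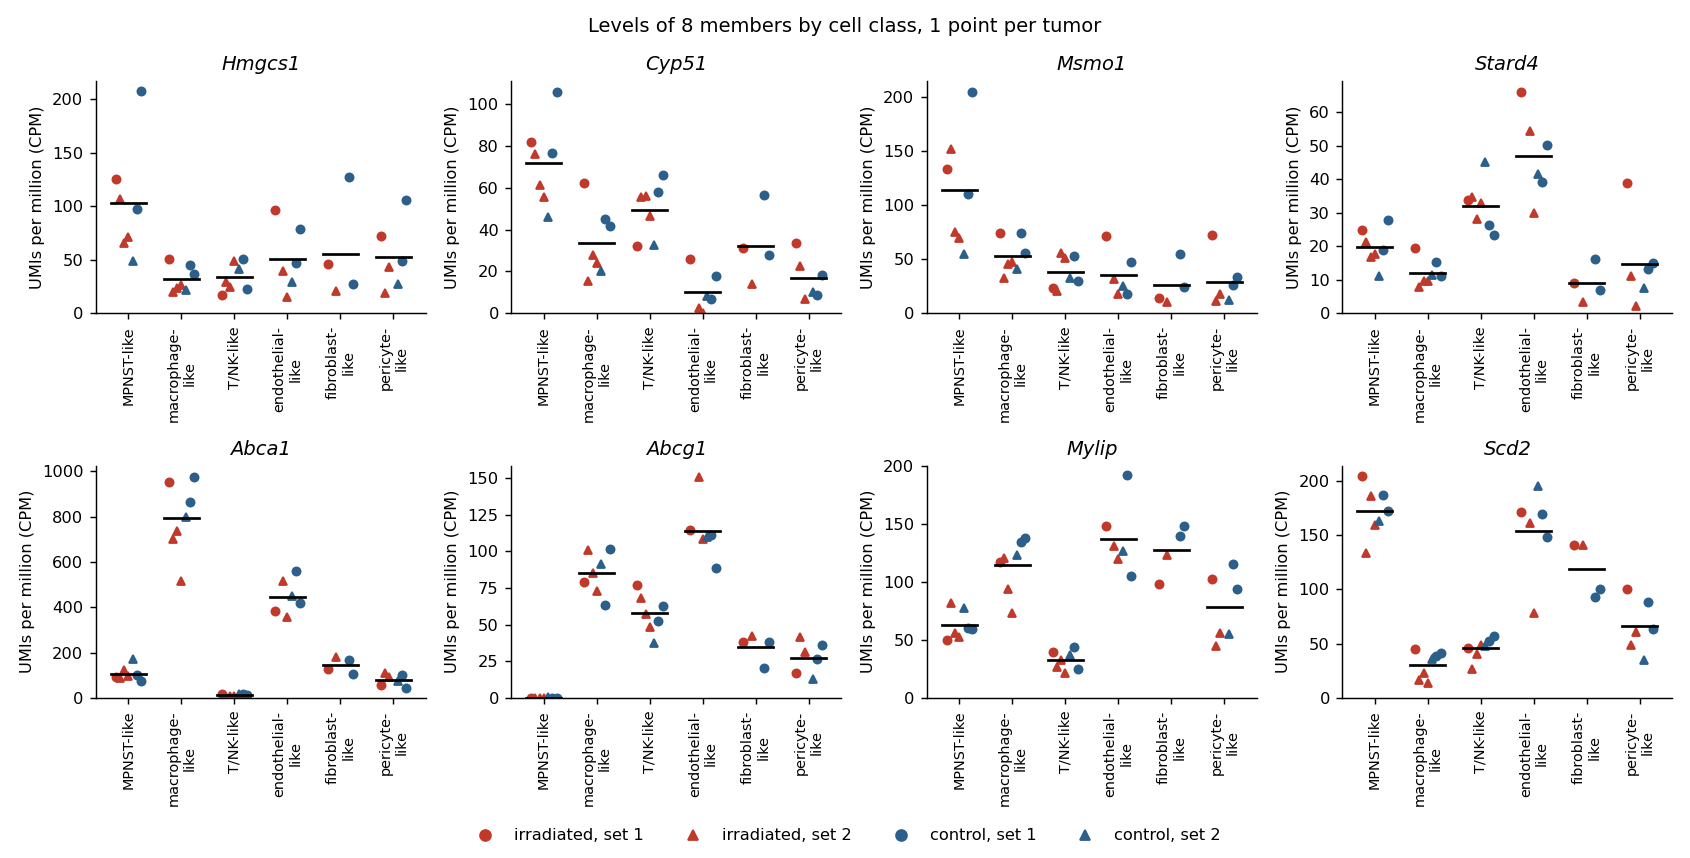
Level of 8 members (CPM, linear axis from 0) in each cell class, 1 point per tumor, with a bar at the class mean, red for irradiated and blue for control tumors, circles for technical set 1 and triangles for set 2. Abca1 and Abcg1 were high in macrophage-like and endothelial-like cells, where Abca1 had class means of 792 and 448 CPM, and Abcg1 lay at 0.175 CPM in MPNST-like cells; tumors with under 20 cells of a class are not drawn.

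Macrophage-like cells held far more of the efflux mRNAs than MPNST-like cells. Macrophage-like cells had 9.31 ± 0.20 log2 units (fold ± SE, 7 tumors) more Abcg1, 4.58 ± 0.21 more Nr1h3, 3.38 ± 0.16 more Abca1 and 1.33 ± 0.10 more Mylip than MPNST-like cells of the same tumors, so 4 of the 4 LXR and efflux members were higher. The fit scales libraries by TMM (edgeR's trimmed mean of M-values), which added 0.47 to each difference between these classes relative to plain CPM. Of the 17 synthesis genes, 9 were lower and 3 higher in macrophage-like cells, with a median of -0.55, and the 4 fatty acid genes were all lower. Over all members 21 of 29 passed the test (edgeR's quasi-likelihood test with tumor as a block, Benjamini-Hochberg adjusted p under 0.05 over 16912 genes), 8 higher and 13 lower. Since 84.5% of all genes passed the same test, 39.8% higher and 44.8% lower, the share of members called was below that of all genes, and it is their direction by role and their size that is given below. Without TMM scaling, an alternative added after seeing the data, the median of all genes was -0.58 in place of -0.11, and 27 members passed, 6 higher and 21 lower, with 1 synthesis gene (Ebp) higher and 14 lower.

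Abca1, which lipidates apolipoprotein A-I, was at 517.9 (lowest), 798.5 (median) and 977 CPM (highest) in macrophage-like cells and at 74.13, 95.09 and 173.6 CPM in MPNST-like cells (adjusted p = 2.3e-09). Every tumor's macrophage-like cells were above the MPNST-like cells of all 7 tumors. Abcg1, which exports cholesterol to mature high-density lipoprotein, was at 63.56 to 101.9 CPM (median 85.37) in macrophage-like cells and at 0.0836 to 0.32 CPM (median 0.159) in MPNST-like cells, where 73 UMIs were counted over all tumors. The ratio of pooled CPM, which has no TMM scaling, was 454 with a 95% counting interval of 361 to 580. The Abcg1 level in MPNST-like cells was 0.186% of that in macrophage-like cells while the macrophage marker list stood at 0.267%, so Abcg1 in MPNST-like cells did not exceed what the other macrophage genes showed there and is read as background.

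Nr1h3 was low in both classes, at 6.167 to 14.94 CPM in macrophage-like cells and 0.4371 to 0.6648 CPM in MPNST-like cells (958 and 211 UMIs), a pooled ratio of 18.4 (15.8 to 21.4). Its level in MPNST-like cells was 5.23% of that in macrophage-like cells, above the 0.267% of the marker list, as was the 11.9% of Abca1. Mylip ranged from 73.48 to 137.8 CPM (median 121) in macrophage-like cells and from 50.14 to 82.4 CPM (median 59.76) in MPNST-like cells, and the ranges overlapped between different tumors although the paired difference passed (adjusted p = 9.3e-08). Among the 15 other genes of LXR signaling, sterol storage and trafficking, a list of related genes drawn up with earlier results of these data known, 14 were higher in macrophage-like cells and 1 did not pass. The largest 3 differences among all 35 related genes were Cyp27a1 (6.84 ± 0.19), an oxysterol-forming hydroxylase, Pltp (6.65 ± 0.17), the phospholipid transfer protein, and Me1 (-5.95 ± 0.33), malic enzyme, which supplies NADPH. Of those 35 genes 30 passed, 19 higher and 11 lower.

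**Figure D2:**
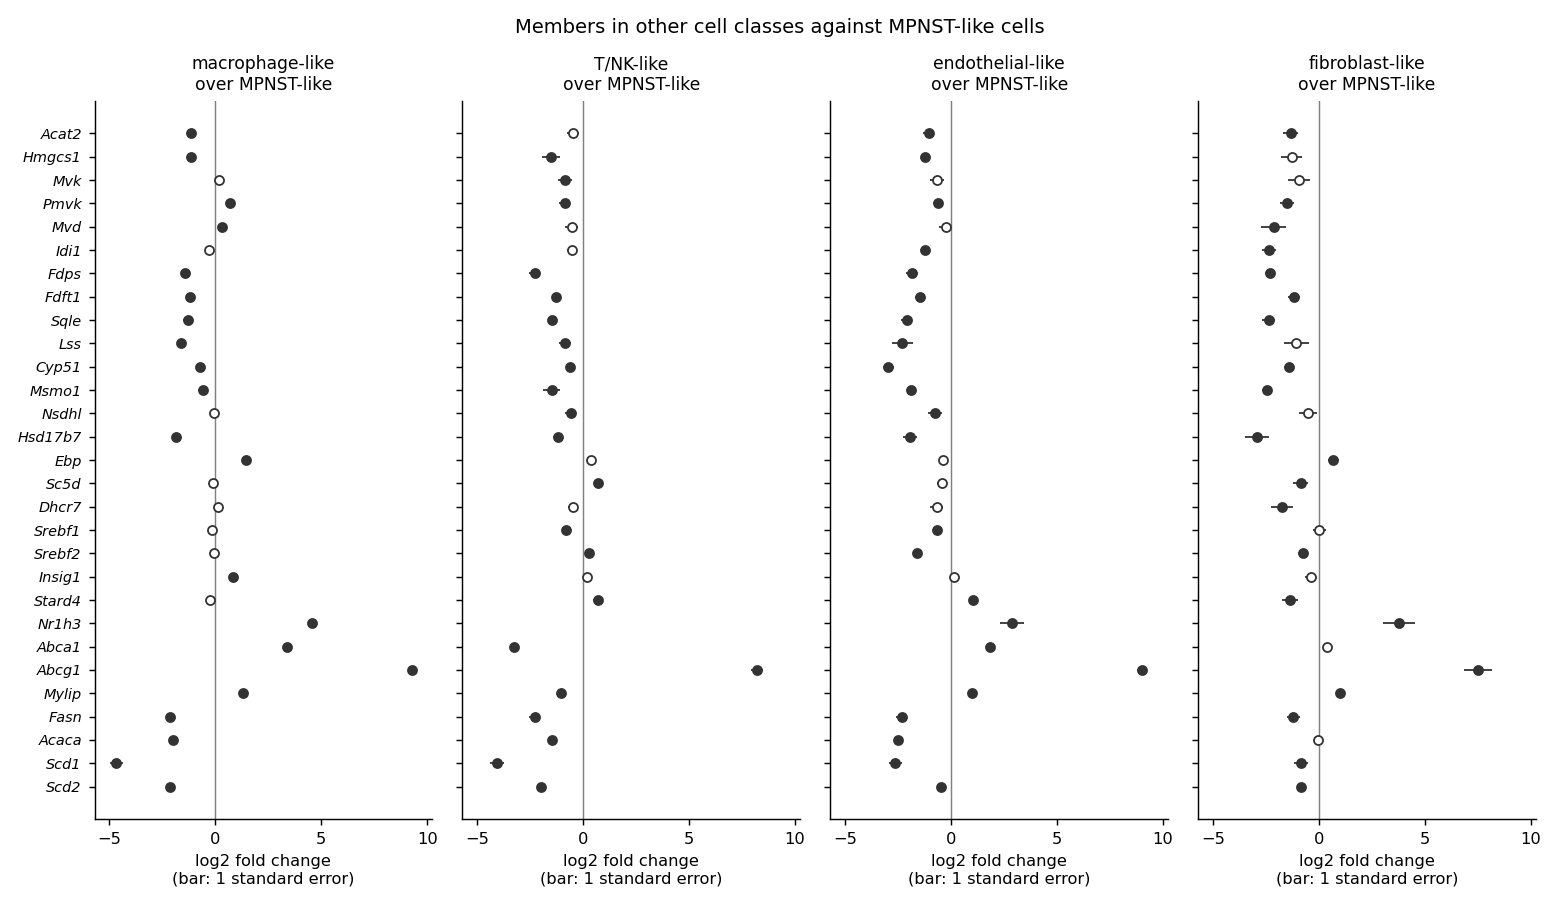
Log2 fold change of each member (rows) in macrophage-like, T/NK-like, endothelial-like and fibroblast-like cells over MPNST-like cells of the same tumors, as points with bars of 1 standard error; filled points passed the test and open points did not. Abcg1 lies between 7.50 and 9.31 in the 4 panels, and most synthesis genes lie left of 0.

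The synthesis genes did not all differ the same way. The lower ones in macrophage-like cells were Acat2 (-1.12 ± 0.10), Hmgcs1 (-1.15 ± 0.19) and Fdps (-1.41 ± 0.12) in the mevalonate steps, and Fdft1 (-1.19 ± 0.19), Sqle (-1.30 ± 0.21), Lss (-1.61 ± 0.16), Cyp51 (-0.71 ± 0.18), Msmo1 (-0.55 ± 0.23) and Hsd17b7 (-1.83 ± 0.16) in the sterol steps. Hmgcs1, the enzyme that makes HMG-CoA and whose promoter carries the sterol response element shown above, was at 48.74, 97.6 and 207.6 CPM (lowest, median, highest) in MPNST-like cells and at 19.99, 26.59 and 50.81 CPM in macrophage-like cells, with a slight overlap between tumors. Lss, which closes squalene epoxide into lanosterol, was at 6.194 to 9.948 CPM in MPNST-like cells and at 1.487 to 3.561 CPM in macrophage-like cells, with no overlap. Hsd17b7, a sterol ketoreductase, was at 10.85 to 22.11 and 2.48 to 4.343 CPM, again apart.

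Ebp, the sterol isomerase, went the other way, at 44.24 to 55.49 CPM in macrophage-like cells and 19.6 to 29.8 CPM in MPNST-like cells (1.47 ± 0.11, adjusted p = 1.1e-07). Pmvk (0.70 ± 0.15, and 0.23 with adjusted p = 0.11 without TMM scaling) and Mvd (0.33 ± 0.14, adjusted p = 0.041) were the other synthesis genes called higher, and Insig1, which holds SREBP in the endoplasmic reticulum, was higher by 0.82 ± 0.14. Mvk, Idi1, Nsdhl, Sc5d and Dhcr7 lay between -0.30 and 0.16 and did not pass, nor did Srebf1 (-0.14 ± 0.09), Srebf2 (-0.07 ± 0.06) and Stard4 (-0.25 ± 0.18). The call on Mvd was lost under 13 alternatives and that on Msmo1 (adjusted p = 0.045) under 7. Within technical set 1 alone, Hmgcs1 and Cyp51 did not pass.

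The fatty acid members had the most negative differences of the 29 between macrophage-like and MPNST-like cells. Scd1, a stearoyl-CoA desaturase, was at 16.19 to 30.02 CPM in MPNST-like cells and at 0.2458 to 2.045 CPM in macrophage-like cells (74 UMIs in all), a log2 difference of -4.67 ± 0.30 and a pooled ratio of 35 in favor of MPNST-like cells (27.8 to 44.6). It stood in macrophage-like cells at 2.03% of its MPNST-like level, where the MPNST marker list stood at 1.27%. Its paralog Scd2 was at 133.7 to 204.6 CPM in MPNST-like cells and 13.67 to 44.73 CPM in macrophage-like cells (-2.13 ± 0.18). Fasn, fatty acid synthase, differed by -2.15 ± 0.18 and Acaca, acetyl-CoA carboxylase, by -1.98 ± 0.07, with no overlap between the classes for any of the 4. How reads shared by Scd1 and Scd2, or by Acat2 and its near copy Acat3, were divided by the counting is not given in the sources used here.

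T/NK-like cells shared Abcg1 with macrophage-like cells but not Abca1. Abca1 was at 5.559, 14.31 and 17.41 CPM (lowest, median, highest) in T/NK-like cells, a log2 difference of -6.42 ± 0.13 from macrophage-like cells (7 tumors, edgeR adjusted p = 2.7e-26) and of -3.28 ± 0.19 from MPNST-like cells. That level was 1.79% of the macrophage-like level, and the macrophage marker list in T/NK-like cells was at 2.03% of its own. The list holds Tyrobp and Fcgr3, which NK cells also express, so it is not a clean measure of background there. Whether the Abca1 counted in T/NK-like cells is background was not tested. Abcg1 was at 37.15 to 77.39 CPM (median 57.3), which is 67.1% of the macrophage-like level and far above the 2.03% of the list. It differed from macrophage-like cells by -0.94 ± 0.12 and from MPNST-like cells by 8.19 ± 0.28. Nr1h3 had 1 UMI over all T/NK-like cells against 958 in macrophage-like cells, a pooled ratio of 55.6 with an interval of 9.96 to 2.2e+03. Mylip was at 21.95 to 43.91 CPM, 26.9% of the macrophage-like level and below it in every tumor (-2.17 ± 0.12).

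Against macrophage-like cells, 19 of 29 members passed in T/NK-like cells, 7 higher and 12 lower, where 68.4% of the 14065 genes tested passed, 30.1% higher and 38.4% lower. Higher were Stard4 (1.12 ± 0.18), which carries cholesterol through the cytosol, Sc5d (1.05 ± 0.17), Lss, Hsd17b7, Acat2, Acaca (0.69 ± 0.12) and Srebf2 (0.53 ± 0.10). Lower, besides the 4 efflux members, were Pmvk (-1.41 ± 0.18), Ebp (-0.91 ± 0.13), Mvk, Mvd, Fdps, Msmo1 (-0.78 ± 0.18), Insig1 (-0.46 ± 0.13) and Srebf1. All 15 of the related LXR, storage and trafficking genes were lower in T/NK-like cells, led among the 28 of 35 related genes that passed (8 higher, 20 lower) by Pltp (-6.98), Ch25h (-6.55), an oxysterol-forming hydroxylase, and Cyp27a1 (-6.04). The 17 synthesis genes split into 4 higher, 6 lower and 7 that did not pass. With the other size factors of edgeR (RLE) the members split 8 to 10 and not 7 to 12, since the median of all genes moved from -0.11 to 0.00 log2 units. Without TMM scaling they split 8 to 6, with a median of all genes of 0.26, and Mvk, Mvd, Fdps, Msmo1, Insig1 and Srebf1 no longer passed. The member median was -0.20, and it was -0.63 within technical set 1 and 0.33 within set 2.

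Against MPNST-like cells, 22 of the 28 members tested passed in T/NK-like cells, 4 higher and 18 lower, beside 71.6% of all 16705 genes (27.9% higher, 43.6% lower). The member median was -0.85 and that of all genes -0.35. Higher were Abcg1, Sc5d (0.72 ± 0.18), Stard4 (0.69 ± 0.22) and Srebf2 (0.27 ± 0.12), the last lost under 9 alternatives. Of the synthesis genes 11 were lower, among them Fdps (-2.29 ± 0.25), Hmgcs1 (-1.52 ± 0.42), Msmo1 (-1.49 ± 0.42) and Sqle (-1.45 ± 0.21). All 4 fatty acid members were lower, with Scd1 at -4.07 ± 0.33 and Fasn at -2.29 ± 0.26. T/NK-like cells numbered 111 to 243 per tumor and had a median of 2016 to 5494 UMIs, so a member at a few CPM rests on a few UMIs there. Of the 35 related genes 19 passed, 6 higher and 13 lower, led by Fads2 (-6.35), a fatty acid desaturase, Me1 (-5.48) and Elovl5 (3.27), a fatty acid elongase.

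Like macrophage-like cells, endothelial-like cells had more of the efflux mRNAs and less of most synthesis mRNAs than MPNST-like cells. Abcg1 ranged from 88.54 to 151 CPM and Abca1 from 357.8 to 558.9 CPM over tumors, higher than in MPNST-like cells by 8.99 ± 0.24 and 1.84 ± 0.14, and Nr1h3 (2.87 ± 0.58) and Mylip (0.98 ± 0.15) were higher too. Of the 17 synthesis genes 12 were lower and 0 higher. Cyp51, the lanosterol demethylase, was at 0 to 26.18 CPM against 46.11 to 105.6 CPM in MPNST-like cells (-2.96 ± 0.27), followed by Lss (-2.30 ± 0.48) and Sqle (-2.10 ± 0.27), the epoxidase. Stard4 was the only member outside the efflux arm that was higher, at 30.06 to 66.14 CPM against 11.3 to 27.85 CPM (1.03 ± 0.19), and Srebf2 was lower (-1.61 ± 0.20). In all 23 of 29 members passed, 5 higher and 18 lower, beside 57.6% of 16320 genes (21.2% higher, 36.4% lower). The fit used 6 tumors, since irradiated 2 had 18 endothelial-like cells. With RLE size factors the median of all genes moved from -0.29 to -0.12 and 19 members passed.

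Fibroblast-like cells, of which 4 tumors had at least 20, differed from MPNST-like cells in the same direction for most synthesis genes (12 lower, 1 higher). Hsd17b7 (-2.94 ± 0.58), Msmo1 (-2.44 ± 0.24), Sqle (-2.38 ± 0.33), Idi1 (-2.35 ± 0.33) and Fdps (-2.31 ± 0.23) fell most, and Abcg1 (7.50 ± 0.67), Nr1h3 (3.78 ± 0.74) and Mylip (0.98 ± 0.19) were higher. Abca1 (0.39 ± 0.19, adjusted p = 0.089) and Acaca (-0.04 ± 0.19) did not pass. In all 21 of 29 members passed, 4 higher and 17 lower, beside 37.5% of 16164 genes (13.9% and 23.6%). These cells carried the MPNST marker list at the level of tumor cells, as given above, and the part of wrongly assigned tumor cells in these values was not tested. Among the related genes, the 3 that differed most here were Elovl6 (-4.25), Pltp (4.16) and Scarb1 (-3.86), a lipoprotein receptor, and in endothelial-like cells Ch25h (3.89), Acacb (2.91) and Scarb1 (2.86).

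Set in order of class means, Abca1 was at 792 ± 159 CPM (SD, n = 7 tumors) in macrophage-like, 448 ± 77.7 (n = 6) in endothelial-like, 144 ± 35.6 (n = 4) in fibroblast-like, 107 ± 32.7 (n = 7) in MPNST-like, 79.3 ± 26.3 (n = 6) in pericyte-like and 12.1 ± 5.15 (n = 7) in T/NK-like cells. The SD range of MPNST-like cells overlapped that of fibroblast-like and that of pericyte-like cells. The ranges of fibroblast-like and pericyte-like cells did not overlap each other. Abcg1 ran from 114 ± 20.4 in endothelial-like cells through 85.1 ± 14.3 in macrophage-like, 57.7 ± 13.2 in T/NK-like, 34.7 ± 9.84 in fibroblast-like and 27.6 ± 11.2 in pericyte-like cells down to 0.175 ± 0.0881 in MPNST-like cells. Of the 6 classes, MPNST-like cells had Abcg1 at background and the 5 host classes had it well above. Nr1h3 was at 58.8 ± 26.4 CPM in pericyte-like cells, above the 9.72 ± 3.04 of macrophage-like cells; pericyte-like cells entered no test. Of the synthesis genes, 12 of 17 had their highest class mean in MPNST-like cells.

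Among macrophages, Abca1 and Mylip of the efflux arm varied, and the synthesis genes, which had fewer UMIs, did not pass in any subset. Macrophage-like cells were divided by further marker lists into Mrc1-like cells (3564), which express the mannose receptor and other resident-type genes, and lipid-associated-like (1055), monocyte-like (577), inflammatory-like (377) and osteoclast-like (165) cells, each compared with Mrc1-like cells of the same tumors. Abca1 was at 675.3 to 1082 CPM in Mrc1-like cells, 507.3 to 911.1 in lipid-associated-like cells, 353.7 to 558.7 in inflammatory-like cells, 222.8 to 327.8 in monocyte-like cells and 196.7 to 503.8 in osteoclast-like cells. Mrc1-like cells were above the monocyte-like and the osteoclast-like cells of every tumor compared. The log2 differences were -1.59 ± 0.11 for monocyte-like (5 tumors, edgeR adjusted p = 2.5e-10), -1.69 ± 0.19 for osteoclast-like (5 tumors, adjusted p = 0.00011), -1.04 ± 0.11 for inflammatory-like (4 tumors, adjusted p = 2.1e-06) and -0.34 ± 0.10 for lipid-associated-like cells (7 tumors, adjusted p = 0.059).

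Mylip was lower in all 4 subsets, with differences of -0.91 ± 0.21 in monocyte-like, -0.98 ± 0.13 in inflammatory-like, -0.69 ± 0.13 in osteoclast-like and -0.21 ± 0.06 in lipid-associated-like cells, the last lost under 5 alternatives. Abcg1 did not pass in any, with differences from -0.18 to 0.26. Nr1h3 passed in monocyte-like cells (-0.83 ± 0.29), a call lost under 6 alternatives. Beyond these, Srebf2 was higher in monocyte-like (0.43 ± 0.13) and inflammatory-like cells (0.42 ± 0.13), Acaca in monocyte-like cells (0.46 ± 0.17), and Scd2 was lower in inflammatory-like (-0.75 ± 0.23) and higher in lipid-associated-like cells (0.35 ± 0.10). Of the synthesis genes, 0 passed in each subset by edgeR, out of 16, 16, 16 and 17 tested (without TMM scaling, 1 in monocyte-like cells). Over all tumors they had 7 (Lss) to 138 UMIs (Msmo1) in osteoclast-like cells, where Abca1 had 852. In monocyte-like cells they had 6 (Lss) to 234 UMIs (Ebp), where Abca1 had 1629. Differences in these genes could therefore be missed, and not passing does not show equal levels.

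Members called numbered 5 of 27 in monocyte-like cells (2 higher, 3 lower; all 11363 genes 32%, 16% each way), 4 of 27 in inflammatory-like cells (1 and 3; 20.1% of 11004, 10.9% and 9.26%), 2 of 27 in osteoclast-like cells (0 and 2; 17.7% of 10767, 8.27% and 9.48%) and 2 of 28 in lipid-associated-like cells (1 and 1; 13.5% of 11471, 6.23% and 7.24%). Each share is below that of all genes. The macrophage markers summed to 28630 to 33980 CPM in Mrc1-like cells, 16400 to 19390 in monocyte-like and 10580 to 22480 in osteoclast-like cells, and their part in the Abca1 difference was not tested. The related genes that differed most in monocyte-like cells were Rxra (-1.59), the partner receptor of LXR, Lpin1 (-1.56), a phosphatidate phosphatase, and Pltp (-1.54). In inflammatory-like cells they were Rxra (-2.01), Pltp (-1.25) and Fads1 (-0.77), a fatty acid desaturase. In osteoclast-like cells they were Nceh1 (-0.97), a cholesteryl ester hydrolase, Insig2 (-0.96), which like Insig1 retains SREBP, and Soat1 (-0.62), which esterifies cholesterol. In lipid-associated-like cells they were Fads2 (1.03), Ch25h (-0.48) and Lpcat3 (0.28), a phospholipid acyltransferase.

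Cycling MPNST-like cells, with at least 5 of 10 mitotic markers, carried more of nearly every synthesis mRNA than non-cycling cells with at most 1. Of the 17 synthesis genes 16 were higher and 0 lower, with a median of 0.99 log2 units; Ebp (0.15 ± 0.08) did not pass. The efflux arm went down, with Abca1 at -2.92 ± 0.12, Nr1h3 at -1.15 ± 0.33 and Mylip at -0.99 ± 0.06, 3 of the 3 tested. The Nr1h3 value rests on 32 UMIs in cycling and 145 in non-cycling cells over all tumors. In all 25 of 28 members passed, 21 higher and 4 lower, beside 76% of 16274 genes (35.2% higher, 40.8% lower), and the member median was 0.78 against -0.09 for all genes.

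Idi1, the isomerase that makes dimethylallyl diphosphate, was at 41.04, 63.42 and 94.55 CPM (lowest, median, highest tumor) in cycling cells and at 9.975, 17.33 and 37.74 CPM in non-cycling cells (1.91 ± 0.09, 7 tumors, edgeR adjusted p = 2.2e-09). Fdps, which makes farnesyl diphosphate, was at 135.2 to 266.6 CPM in cycling and 33.62 to 102.3 CPM in non-cycling cells (1.87 ± 0.08). The groups did not overlap for either gene. Next came Acat2 (1.67 ± 0.07), Stard4 (1.53 ± 0.11), Sqle (1.40 ± 0.09) and Sc5d (1.22 ± 0.07), while Hmgcs1 (0.85 ± 0.07), Fdft1 (0.51 ± 0.06) and Cyp51 (0.63 ± 0.09) differed less. Abca1 was at 11.64 to 42.54 CPM in cycling cells and 128.9 to 233.5 CPM in non-cycling cells, apart in all 7 tumors. Insig1 (0.77 ± 0.10), Fasn (0.75 ± 0.08) and Scd1 (0.69 ± 0.10) were higher, Srebf2 by 0.12 ± 0.05 (0.00 without TMM scaling), and Srebf1 (-0.11 ± 0.06) and Scd2 (0.04 ± 0.06) did not pass. Of 34 related genes tested 24 passed, 12 higher and 12 lower, among them Lbr (1.89), a sterol reductase of the nuclear envelope, and Rxra (-1.11).

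Cycling cells were deeper, with a median of 29750 to 57220 UMIs per cell in each tumor against 12620 to 26560 in non-cycling cells. In cells matched for depth within each tumor (75 to 450 a side, medians of 21776 to 44074 UMIs), an alternative added after seeing the data, 23 of 27 members passed, 21 higher and 2 lower, with a median of 0.57. The share of all genes that passed with matched cells is not reported here, so this count cannot be set against it. Idi1 was then at 1.52 ± 0.09, Fdps at 1.22 ± 0.06, Abca1 at -2.59 ± 0.11 and Mylip at -0.65 ± 0.07, and Acaca, called lower with all cells (-0.19 ± 0.05), was at 0.01. Ebp was at -0.17 ± 0.08 (adjusted p = 0.064), the opposite sign to that with all cells. Nr1h3 could not be tested there. The MPNST marker list summed to 4826 to 6200 CPM in cycling and 8089 to 10560 CPM in non-cycling cells, and its part in these differences was not tested.

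**Figure D3:**
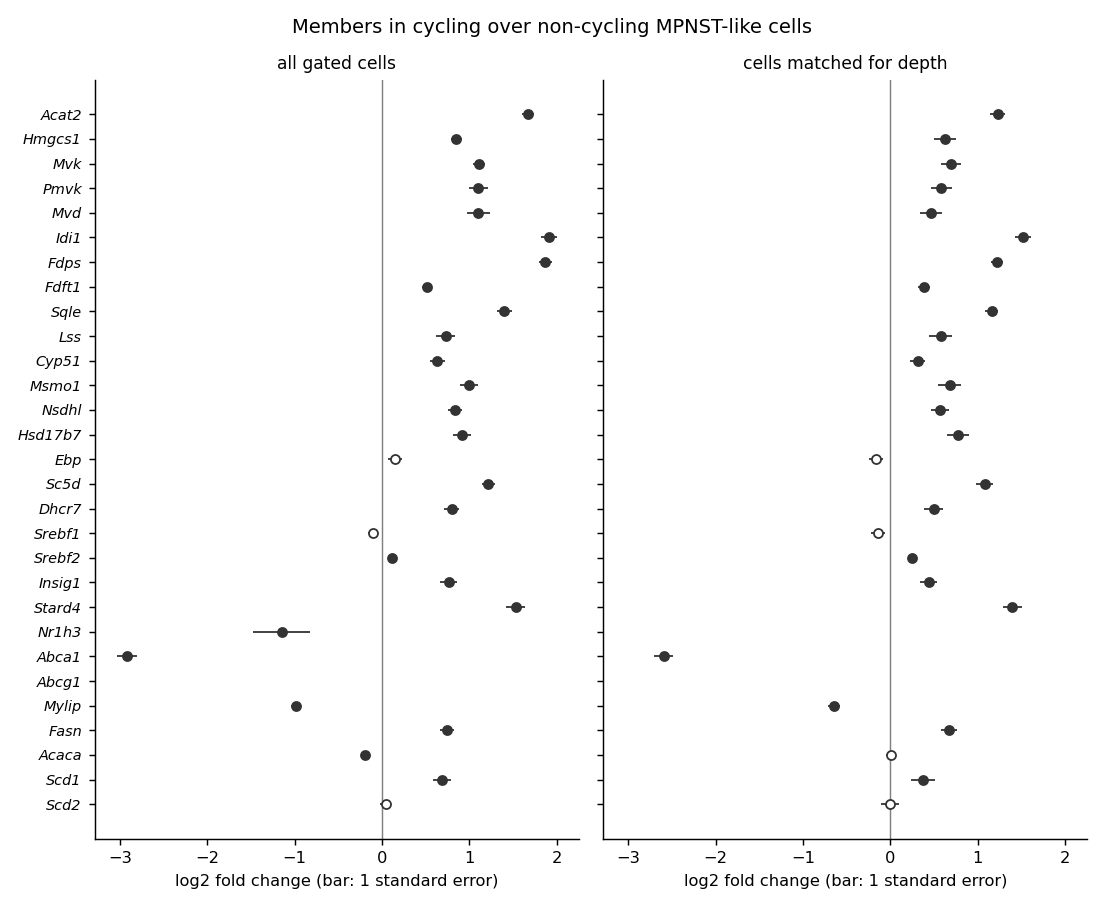
Log2 fold change of each member in cycling over non-cycling MPNST-like cells, with all gated cells (left) and with cells matched for depth (right), bars of 1 standard error and filled points for members that passed the test. Synthesis genes lie at the right of 0, except Ebp at -0.17 in the right panel, and Abca1 at -2.92 and -2.59 in the panels.

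The tumors differed among themselves within each treatment. In MPNST-like cells the 17 synthesis genes summed to 813.4, 653.6, 586.1 and 535.8 CPM in irradiated 1 to 4 and to 406.8, 708.1 and 1066 CPM in control 1 to 3. The lowest and the highest tumor were both controls, and control 3 held the highest level for 9 and control 1 the lowest for 12 of the 17 genes. Abca1 had the reverse order at its ends, with 173.6 CPM in control 1 and 74.13 CPM in control 3, and 92.25, 89.2, 121.5 and 95.09 CPM in irradiated 1 to 4. In non-cycling MPNST-like cells the sum was likewise 294.1 CPM in control 1 and 859 CPM in control 3. The share of cycling cells was 14.3% in control 1, 14.9% in control 2 and 24% in control 3, and 17.9%, 13%, 22.1% and 21.2% in irradiated 1 to 4.

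In macrophage-like cells the same sum was 472.6, 238.2, 286 and 296.5 CPM in irradiated 1 to 4 and 263.9, 429.1 and 361.3 CPM in control 1 to 3. Irradiated 1 was highest for 12 of the 17 genes and irradiated 2 lowest for 10. The 3 highest tumors are those of technical set 1, and 15 of the 29 members (10 of 17 synthesis genes) were higher in all 3 tumors of set 1 than in all 4 of set 2, with 1 member lower. The median log2 ratio of set 1 to set 2 was 0.47 for the members and 0.63 for the synthesis genes. In MPNST-like cells 7 of 29 members, all synthesis genes, were so ordered (median 0.29), and in T/NK-like cells 2 of 25 (median -0.18). The share of all genes so ordered was not counted, so these counts are not read as particular to the members. Macrophage-like cells had a median of 4167 to 6000 UMIs in set 1 and 10270 to 12290 in set 2, and the part of depth or handling in the order of tumors was not tested.

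**Figure D4:**
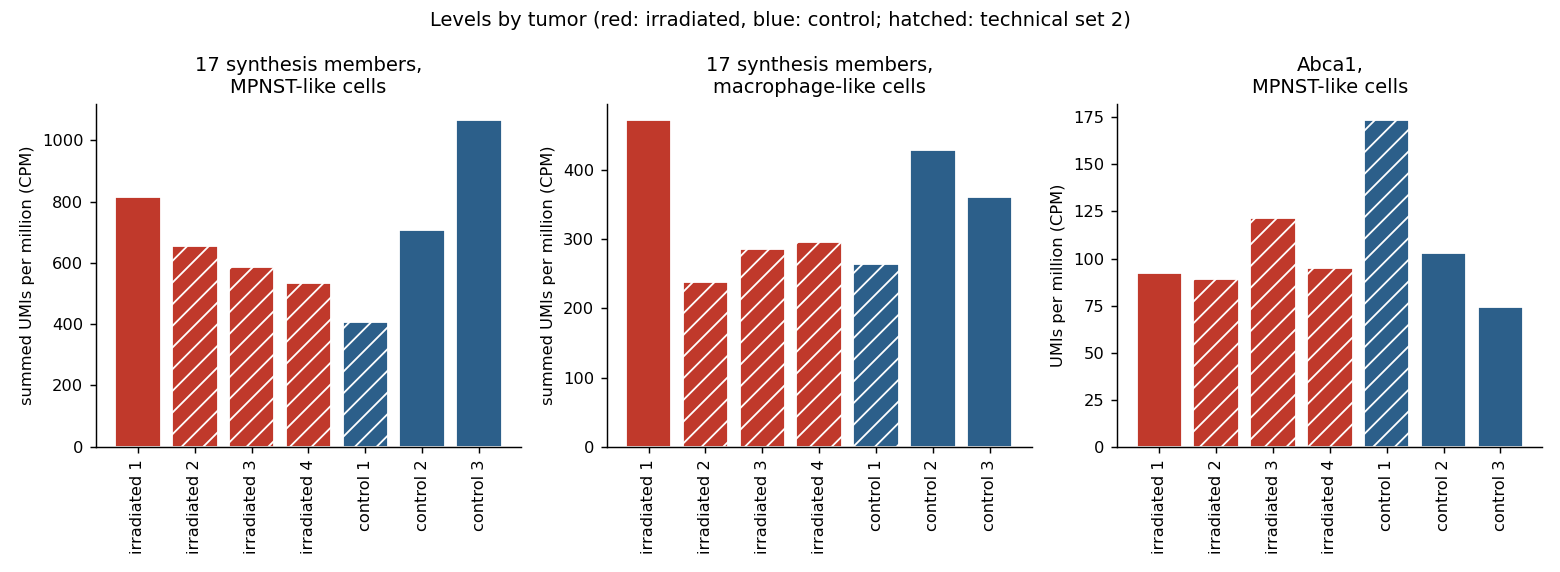
Summed level of the 17 synthesis genes in MPNST-like cells (left) and macrophage-like cells (middle) and level of Abca1 in MPNST-like cells (right), as bars from 0 in CPM, 1 bar per tumor, red for irradiated and blue for control, hatched for technical set 2. Control 1 is lowest (406.8 CPM) and control 3 highest (1066 CPM) at the left, and the order of those 2 tumors is turned around for Abca1.

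Between irradiated and control tumors, 0 members passed in any class (edgeR's quasi-likelihood test, 4 against 3 tumors). In MPNST-like cells 0 of 28 passed, and 0% of 17348 genes did, with 0 members and 204 genes at an unadjusted p under 0.05. In macrophage-like cells it was 0 of 28 and 0% of 12718 genes, with 1 member and 685 genes at that level, in T/NK-like cells 0 of 20 and 0% of 7552 genes, with 3 members and 418 genes, and in endothelial-like cells 0 of 16 and 0% of 7585 genes (6 tumors), with 1 member and 335 genes. DESeq2 also called 0 members in each, and 0, 2, 1 and 0 genes in all. The medians of the members were -0.12, -0.15, -0.10 and 0.05 log2 units in these 4 classes, beside medians of all genes between -0.02 and 0.00. With 1 tumor left out they ran from -0.26 to 0.10 in MPNST-like cells (0.10 without control 3, -0.26 without control 1 and -0.24 without irradiated 1), from -0.44 to -0.02 in macrophage-like cells (-0.44 without irradiated 1, -0.27 without control 1 and -0.02 without control 2), and from -0.22 to -0.10 in T/NK-like cells. In endothelial-like cells the range was -0.44 to 0.45, its ends reached by leaving out irradiated 1 and control 3. Without irradiated 1, 11 of 28 members and 1783 of 12720 genes had an unadjusted p under 0.05 in macrophage-like cells, and 0 passed.

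Single genes had wide errors beside their differences. Hmgcs1 in MPNST-like cells was at 125.4, 106.5, 66.28 and 71.18 CPM in irradiated tumors and 48.74, 97.6 and 207.6 CPM in controls (-0.49 ± 0.50). The irradiated values lay inside the range of the controls. Abca1 in macrophage-like cells was at 951.1, 701.7, 737.4 and 517.9 CPM against 798.5, 862.6 and 977 CPM, overlapping as well, and Abcg1 at 79.39, 100.9, 85.37 and 72.97 against 91.65, 63.56 and 101.9 CPM. Mylip in macrophage-like cells, at 117.4, 121, 93.77 and 73.48 against 123.5, 135.1 and 137.8 CPM, was the 1 of 28 members there whose groups did not overlap (-0.41 ± 0.17, adjusted p = 0.82), beside 5.03% of all genes, 2.44% higher and 2.59% lower in irradiated tumors. Nr1h3, at 7.817, 9.75, 12.18 and 14.94 against 9.853, 6.167 and 7.33 CPM, had a difference of 0.50 ± 0.24.

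In T/NK-like cells 5 of 20 members did not overlap between the groups, beside 6.58% of all genes there (3.23% higher, 3.35% lower). Sqle was at 19.7, 12.51, 17.98 and 21.95 CPM in irradiated and 9.288, 10.54 and 8.941 CPM in control tumors (0.88 ± 0.37, adjusted p = 0.85), and Fdft1, squalene synthase, was higher as well (0.66, adjusted p = 0.90). Idi1 was at 18.29, 22.24, 20.22 and 25.08 against 34.83, 33.37 and 30.4 CPM (-0.65 ± 0.25, adjusted p = 0.85), and Srebf1 and Scd2 were also lower without overlap. None of the 5 passed the test over all genes, and they went both ways. In MPNST-like cells 0 of 28 members did not overlap, beside 2.13% of all genes (0.842% higher, 1.29% lower), and in endothelial-like cells 3 of 16 (Fdft1 and Acaca higher, Ebp lower), beside 9.87% (4.43% higher, 5.44% lower).

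**Figure D5:**
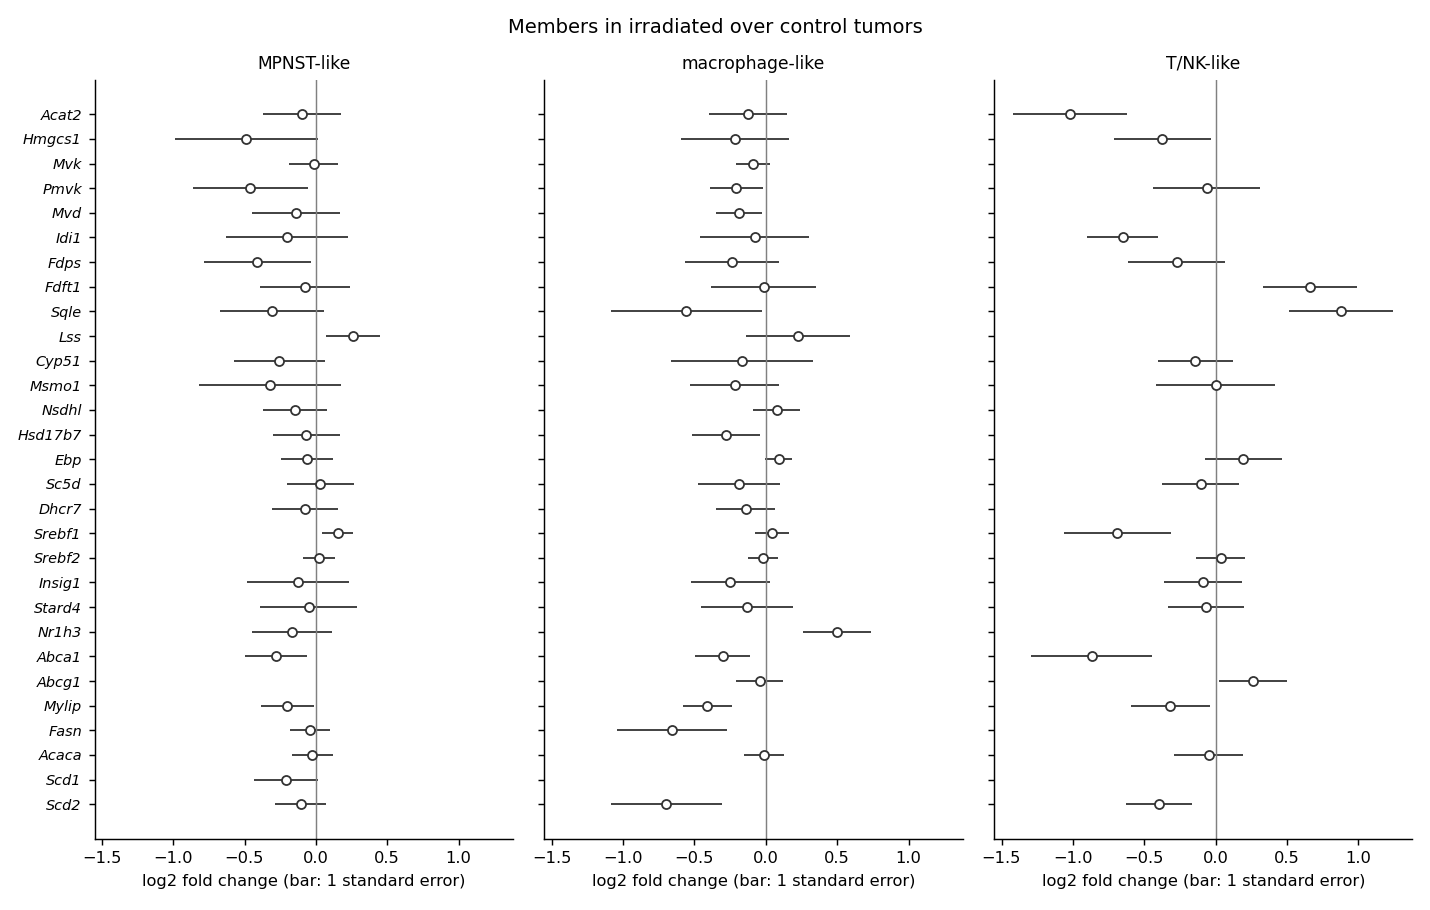
Log2 fold change of each member in irradiated over control tumors (4 against 3) in MPNST-like, macrophage-like and T/NK-like cells, with bars of 1 standard error; open points did not pass the test, and members left out by the filter on low counts have no point. All points are open.

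Adding the technical set to the fit changed the sign of the member median in MPNST-like and macrophage-like cells and not in the other 2 classes. With the set as a term in the fit the member medians were 0.13 in MPNST-like, 0.09 in macrophage-like, -0.20 in T/NK-like and 0.32 in endothelial-like cells, and again 0 members passed. Compared within set 1 (1 irradiated, 2 control tumors), 19 of 29 members were higher and 10 lower in irradiated MPNST-like cells (median 0.07), and within set 2 (3 irradiated, 1 control) 20 were higher and 9 lower (median 0.27). In macrophage-like cells 23 were higher and 6 lower in set 1 (0.19) and 14 and 15 in set 2 (-0.06). In T/NK-like cells 8 were higher and 17 lower in set 1 (-0.18), 14 of the 16 synthesis genes among the lower, and 12 and 13 in set 2 (-0.16). The same counts within sets were not made for all genes, so they are not read as particular to the members. A direct test of whether the irradiation effect differed between macrophage-like and MPNST-like cells gave 0 of 29 members (0% of all genes tested), with 3 members and 818 genes at an unadjusted p under 0.05, namely Abcg1 (1.06 ± 0.34), Scd2 (-0.77 ± 0.25) and Fasn (-0.71 ± 0.29); the first rests on the 73 Abcg1 UMIs of MPNST-like cells. DESeq2 called 0 members there too.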

How the data were processed

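Tumors were dissociated with papain, and 10x Genomics 3′ v3.1 libraries were made, 1 from each tumor. The authors deposited raw UMI counts per gene and cell, aligned to mm10 with Cell Ranger. The file headers give version 8.0.0, the study's methods name an earlier one, and whether intronic reads were counted is not given in the sources used here. Cells were left out where their depth, number of genes, mitochondrial or ribosomal share lay more than 3 deviations (median absolute) from the library's median. Marker lists gated the classes: MPNST-like cells needed 6 of 15 markers, macrophage-like cells 9 of 15 and T/NK-like cells 4 of 14, with an upper limit on markers of other classes and thresholds set on markers after these were seen. At those thresholds stood 749, 539 and 132 retained cells, and 1 marker below 610, 436 and 103; for endothelial-like and fibroblast-like cells it was 91 and 465, and 1611 and 4577, so the other conditions of the gate decide most of the fibroblast-like class. Among macrophage-like cells, 2428 stood at the threshold of the Mrc1-like gate (5 of 8 markers) and 2866 just below, 1063 and 2308 for lipid-associated-like, 600 and 1125 for monocyte-like, 682 and 1543 for inflammatory-like and 286 and 1227 for osteoclast-like cells. 7 cells in more than 1 gate were left unassigned, and no doublet caller was run, so mixed droplets may remain.

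Deposited counts were summed per tumor and class, tumors with under 20 cells of a class were dropped, and all genes were fitted with edgeR 4.0.16 (R 4.3.3; filterByExpr, TMM, robust quasi-likelihood test, Benjamini-Hochberg adjustment, threshold 0.05), with tumor as a block between classes. DESeq2 1.42.0 was an alternative. CPM are counts per 1000000 UMIs of the class in a tumor. Intervals (95%, exact) cover counting error only. The tests were checked on simulated data. Members, related genes and marker lists were chosen with earlier results of these data known; all members are named, and of the 35 related genes the 3 that differed most among those past the threshold, of which 1 is not reported here for cycling cells. Matching for depth, single technical sets and fits without TMM scaling were alternatives added after the data were seen.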

Additional observations from a re-analysis of the deposited data

Results flagged for a closer look

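Among the 4 irradiated tumors, 10 of the 83 sets of member levels tested had 1 tumor that stood apart by Dixon's test at the 95% level, which flags about 1 in 20 sets by chance, and member levels of 1 tumor are not independent of each other. Of these, 7 were irradiated 1 in macrophage-like cells, the highest each time: Acat2 at 10.6 CPM (the other 3 tumors 5.307 to 6.01), Idi1 at 37.52 (14.42 to 17.82), Lss at 3.561 (1.564 to 1.721), Hsd17b7 at 4.343 (2.48 to 2.704), Srebf2 at 64.62 (54.09 to 55.8), Insig1 at 56.98 (32.52 to 33.76) and Stard4 at 19.54 (7.784 to 9.714). Irradiated 1 was the 1 irradiated tumor of technical set 1, and the controls of that set had 28.04 and 23.28 CPM of Idi1, 58.79 and 46.22 of Insig1 and 15.29 and 11.06 of Stard4. The same tumor was highest for Nr1h3 in MPNST-like cells, at 0.6648 CPM (0.4371 to 0.4598). The others were Ebp in macrophage-like cells of irradiated 4, at 55.49 CPM (46.54 to 47.99), and Mvd in T/NK-like cells of irradiated 3, at 7.865 CPM (4.169 to 4.703).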

How the results depend on the processing

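Of 144 calls of members between cell classes, subsets and cycling states, 95 held under every alternative run. Of 2411 recomputed values of members with an unadjusted p under 0.05, 2176 kept their direction and side of the threshold, 192 lost it, 39 gained it and 4 changed sign; of 3098 values of the other members 335 changed sign, 208 of them for irradiation. Members called in monocyte-like cells fell from 5 to 3 with DESeq2 and 2 with a stricter gate (3 tumors left), and ranged from 4 to 8 with 1 tumor left out (8 without control 3). In inflammatory-like cells 4 became 2 with DESeq2, and 2 to 4 with 1 tumor left out (2 without irradiated 2). In lipid-associated-like cells 2 became 4 with no filter on low counts, 1 with DESeq2 and 0 with no tumor block, and 0 to 3 with 1 tumor left out (1 without irradiated 4, 1 without control 1, 0 without control 3). The stricter gate left too few osteoclast-like and lipid-associated-like cells to be fitted. Leaving out 1 tumor gave 19 to 22 members for macrophage-like and 20 to 23 for T/NK-like against MPNST-like cells, 15 to 19 for T/NK-like against macrophage-like cells, 21 to 24 for endothelial-like, 16 to 21 for fibroblast-like, 2 for osteoclast-like, 24 to 26 for cycling cells and 0 for irradiation in each class and for its difference between classes. The 4 were Mvd in macrophage-like against MPNST-like cells (-0.13) and Srebf2 in cycling cells (-0.00), both without TMM scaling, Ebp in T/NK-like against MPNST-like cells (-0.10 within technical set 1) and Acaca in cycling cells (0.01 matched for depth); the cause of the last pair was not tested. With the label's replicate number as a replicate block, 0 members passed for irradiation in each class (medians -0.0017, -0.139, -0.178 and 0.254 in MPNST-like, macrophage-like, T/NK-like and endothelial-like cells); same-numbered tumors did not deviate together (correlations -0.429 to 0.111), so the number is read as a name. Depth limits members at a few CPM in T/NK-like, endothelial-like and fibroblast-like cells.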

Other observations

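Pericyte-like cells, which entered no comparison, had Nr1h3 at 58.8 ± 26.4 CPM (SD, n = 6 tumors with at least 20 cells), Abcg1 at 27.6 ± 11.2, Abca1 at 79.3 ± 26.3 and Mylip at 78.3 ± 29.4. Their Nr1h3 mean was the highest of the 6 classes while their Abca1 mean was above that of T/NK-like cells alone (12.1 ± 5.15). They carried the MPNST marker list at 2587 to 4225 CPM and the macrophage list at 103.9 to 293.9 CPM, and the part of other cells in these values was not tested.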
